A study of Mus musculus with 12 samples.

Results

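The genes described are 10 members of the extracellular matrix-degrading system of mouse muscle, chosen by name from the 54532 genes counted. Of these, 6 encode matrix metalloproteinases (Mmp2, Mmp3, Mmp9, Mmp12, Mmp14 and Mmp19) and 4 encode tissue inhibitors of metalloproteinases (Timp1, Timp2, Timp3 and Timp4). All 10 were found by their Ensembl identifiers and all 10 passed the filter on low counts, among 15715 genes tested. RNA sequencing was carried out on gastrocnemius, a calf muscle made mostly of fast fibres, from wild-type C57BL/6 mice aged 6 to 7 months, giving 12 libraries in 4 groups of 3.

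Needling muscle had received bupivacaine, a local anaesthetic that is toxic to muscle fibres, and acupuncture 24 hours later. Injury muscle had received bupivacaine alone. Saline muscle had received a vehicle injection and is named Sham in the labels, and naive muscle had no injection. The genotype, strain, age and tissue were shared by all 4 groups. The time of collection after injection was not given, and the labels do not say that the libraries of a group came from different animals. The p-values therefore reflect just the variation among these libraries, which could be technical. Library totals ran from 16385233 counts in saline replicate 1 to 27155738 in injury replicate 3. Naive replicate 1 stood apart from the other 11 libraries in the heat shock gene Hspa1a, at 2056.1 CPM against 37.8 CPM or less elsewhere, and the values that move most without it are given both ways.

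Matrix metalloproteinases are zinc enzymes that cut collagens, gelatin, elastin, laminin and other proteins around cells. Most are secreted as inactive precursors and are switched on when the propeptide is cut off, and TIMPs then hold the active enzymes in check by filling the catalytic cleft. In muscle, enzymes and inhibitors come from fibroblasts, macrophages, vessel cells and the fibres themselves, and matrix turnover accompanies the clearance and rebuilding of damaged fibres.

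On the mm10 assembly the members lie at scattered places. The macrophage elastase gene Mmp12 (ENSMUSG00000049723) lies on chromosome 9 from 7344381 to 7369499 and the stromelysin gene Mmp3 (ENSMUSG00000043613) lies near it from 7445822 to 7455975, both on the plus strand. The gelatinase genes are Mmp2 (ENSMUSG00000031740), on chromosome 8 from 92827291 to 92853420, and Mmp9 (ENSMUSG00000017737), on chromosome 2 from 164940780 to 164955850. The membrane-bound enzyme gene Mmp14 (ENSMUSG00000000957) spans 54431612 to 54445364 of chromosome 14, and Mmp19 (ENSMUSG00000025355) spans 128790910 to 128800824 of chromosome 10. Among the inhibitors, Timp1 (ENSMUSG00000001131) lies on chromosome X from 20870166 to 20874735, inside the gene Syn1. Timp2 (ENSMUSG00000017466) lies on chromosome 11 from 118301069 to 118355740, and Timp3 (ENSMUSG00000020044) on chromosome 10 from 86300372 to 86349506. Timp4 (ENSMUSG00000030317) lies on chromosome 6 from 115241892 to 115252205. Timp2 and Timp4 are read from the minus strand and the other 8 from the plus strand.

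Promoter windows were available from RefSeq on GRCm38.p6 for 7 of the 10 members, with 8 windows of 300 bases, each from 250 bases before a start to 50 after it. Mmp2, Mmp9 and Mmp19 had no entry. Each window was searched on both strands for the AP-1 element TGANTCA, the TATA element TATAAA and the GC box GGGCGG, which do not overlap one another in these windows. The windows of Mmp3 and Mmp12 are shown because both hold an AP-1 and a TATA match in the same order, and those of Timp1 and Timp4 because these are the inhibitors that differed most between needling and saline muscle, in opposite directions. Capitals mark motif matches and each sequence runs 5′ to 3′ along the gene's strand. The Mmp3 window is chr9:7445572-7445871 (plus strand), and the Mmp12 window is the second of its windows, chr9:7347124-7347423 (plus strand). The Timp1 window is chrX:20869916-20870215 (plus strand) and the Timp4 window is chr6:115252156-115252455 (minus strand).
Mmp3: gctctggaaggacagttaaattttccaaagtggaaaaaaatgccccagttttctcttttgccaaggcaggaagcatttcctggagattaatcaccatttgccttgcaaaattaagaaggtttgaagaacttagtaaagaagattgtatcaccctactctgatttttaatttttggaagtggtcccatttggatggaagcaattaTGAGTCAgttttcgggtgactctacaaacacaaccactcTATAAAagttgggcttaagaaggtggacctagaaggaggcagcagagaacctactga
Mmp12: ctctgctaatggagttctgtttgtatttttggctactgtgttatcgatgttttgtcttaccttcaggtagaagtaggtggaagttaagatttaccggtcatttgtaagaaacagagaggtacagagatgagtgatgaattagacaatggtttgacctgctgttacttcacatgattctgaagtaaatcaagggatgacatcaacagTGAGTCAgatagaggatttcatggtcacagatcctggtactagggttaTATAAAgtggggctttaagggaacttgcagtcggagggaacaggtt
Timp1: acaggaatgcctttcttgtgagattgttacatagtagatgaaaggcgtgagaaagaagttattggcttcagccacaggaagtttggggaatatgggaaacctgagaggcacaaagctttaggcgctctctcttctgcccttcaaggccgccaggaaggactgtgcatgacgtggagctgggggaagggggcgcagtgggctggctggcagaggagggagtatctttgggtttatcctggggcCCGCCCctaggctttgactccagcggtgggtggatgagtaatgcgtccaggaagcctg
Timp4: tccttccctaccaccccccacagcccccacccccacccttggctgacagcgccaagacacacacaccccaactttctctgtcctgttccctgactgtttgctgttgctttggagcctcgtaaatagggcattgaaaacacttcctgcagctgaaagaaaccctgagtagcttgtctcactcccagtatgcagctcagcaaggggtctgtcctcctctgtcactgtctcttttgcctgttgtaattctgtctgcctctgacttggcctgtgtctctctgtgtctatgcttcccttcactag
The Mmp3 window held TGAGTCA with its first base 46 bases before the start, and the Mmp12 window held the same letters 44 bases before it. The TATA match began 7 bases before the start in Mmp3, and in Mmp12 after the start, at base 5. All these distances depend on the annotated starts, which were not checked. An AP-1 match was present in 2565 of 32851 windows (7.81%) and a TATA match in 4473 (13.6%). No searched motif was found in the other Mmp12 window or in the Timp4 window. The GC box, present in 35.7% of all windows, was matched in the windows of Mmp14, Timp1, Timp2 and Timp3. These matches describe the letters of the windows and are not evidence of binding.

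The order of expression was first compared on the deposited FPKM scale, which divides by a gene length so that different genes can be set side by side. The order depends on the length taken for each gene. Annotated exons, merged per gene, cover 888 bases for Timp1, 5894 for Timp4, 7237 for Mmp12 and 8144 for Timp3. Where the transcripts present are shorter than the length used, FPKM is too low, and this was not tested. The same limit holds for FPKM sums, shares and ratios between genes below. Timp2, an inhibitor that also takes part in the activation of the Mmp2 precursor, was the highest member in every group, with a mean of 61.3 FPKM in needling, 49.8 in injury, 45.7 in saline and 31.4 in naive muscle. In needling muscle Timp1 (26.0 FPKM) and Mmp2 (20.6 FPKM) came next with overlapping libraries, then Timp3 (9.28 FPKM) and Mmp14 (8.48 FPKM), which also overlapped. Mmp19 (4.19 FPKM), Mmp12 (3.0 FPKM) and Timp4 (2.83 FPKM) could not be ordered beyond the spread of their libraries, and neither could Mmp3 (0.852 FPKM) and Mmp9 (0.801 FPKM), the lowest.

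In naive muscle the order was different. Timp3 (12.3 FPKM) and Mmp2 (11.5 FPKM) overlapped in second place. Timp4 (5.81 FPKM), Timp1 (4.61 FPKM), Mmp14 (1.98 FPKM), Mmp19 (0.981 FPKM), Mmp9 (0.548 FPKM) and Mmp3 (0.344 FPKM) followed in that order, each overlapping with its next neighbour. Mmp12 was lowest, with a mean of 0.026 FPKM and no overlap with Mmp3. Without naive replicate 1 the Timp1 mean was 0.842 FPKM, below Mmp14 at 1.85 FPKM and apart from both Mmp14 and Timp4 (5.11 FPKM). Mmp19 (0.532 FPKM) and Mmp9 (0.53 FPKM) then overlapped below Timp1, with Mmp3 (0.186 FPKM) under them and Mmp12 listed at 0.

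**Figure D1:**
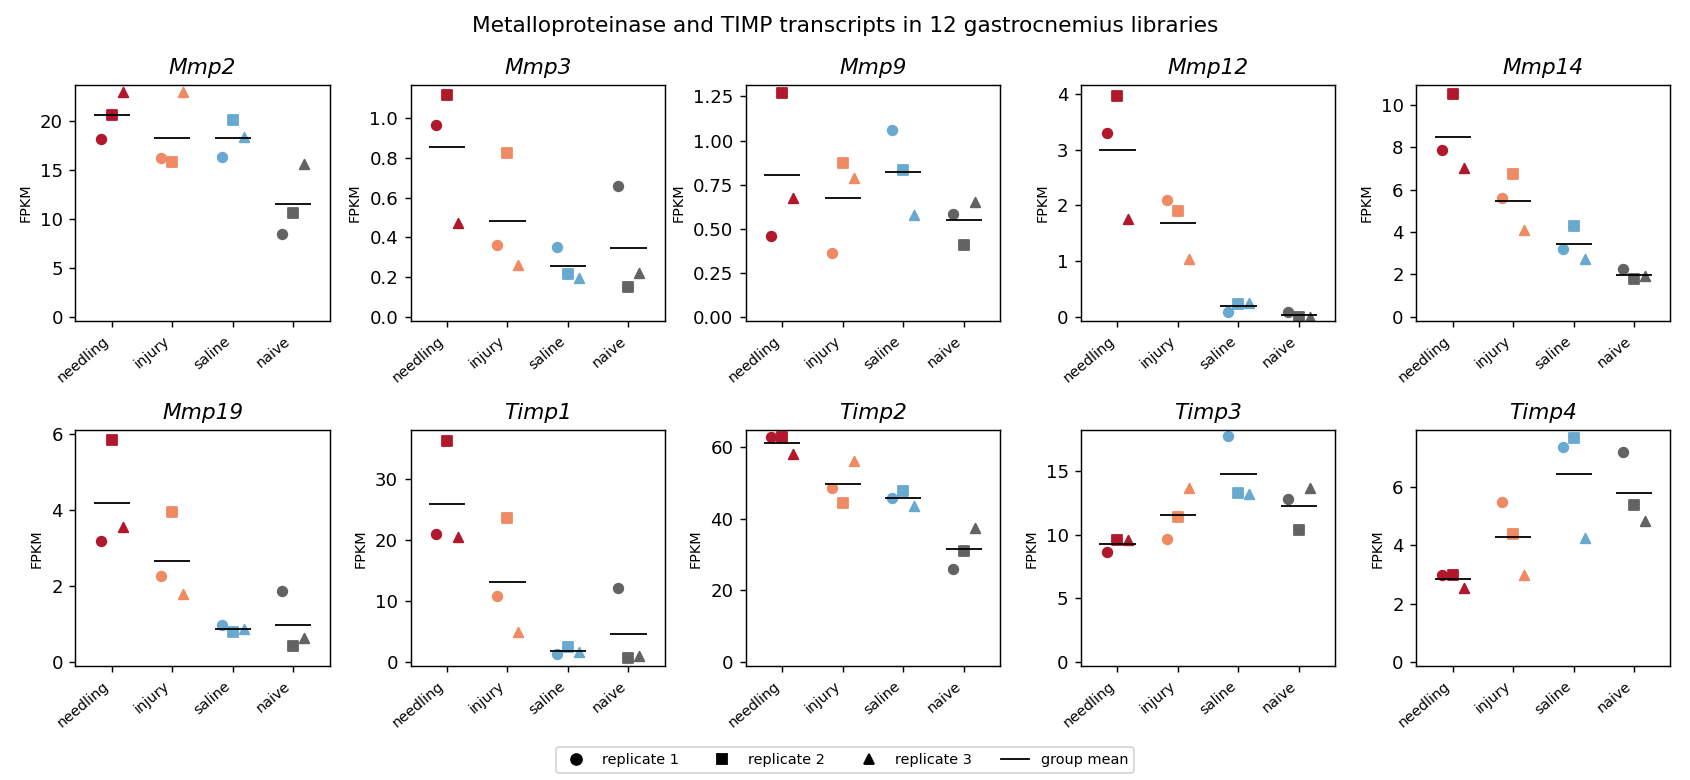
Level of each of the 10 members in each library, in deposited FPKM (y axis of each panel, starting at 0), by group from needling through injury and saline to naive; symbols give the replicate number and the line the group mean of 3 libraries. Mmp12, Mmp14, Mmp19 and Timp1 are highest in needling muscle by group mean, Timp3 and Timp4 are lowest there, and naive replicate 1 lies far above the other naive libraries for Timp1.

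The comparison of needling with saline muscle asks how muscle given both bupivacaine and acupuncture differed from muscle given a vehicle injection. Of the 10 members, 8 passed the test, 6 higher and 2 lower, in a background in which 29.0% of all genes tested passed (18.2% higher and 10.8% lower). Mmp12, Mmp14, Mmp19, Mmp3, Timp1 and Timp2 rose, while Timp3 and Timp4 fell. The median log2 difference of the 10 was 0.85, against -0.04 over all genes tested. Tests were made with edgeR's quasi-likelihood method, with p-values adjusted over all 15715 genes by the Benjamini-Hochberg method, and values per library are TMM-scaled CPM, counts relative to the scaled library size. In bulk muscle, fewer cells of a type and less RNA per cell cannot be told apart, and this holds for each difference below. Where groups are said not to overlap, the share of all genes without overlap is not given, so this only describes the libraries.

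Mmp12, the macrophage metalloelastase, had 23.9, 28.5 and 12.8 CPM in the 3 needling libraries against 0.642, 1.63 and 1.86 CPM in the saline libraries. Every needling library was above every saline library, and the lowest needling value was several times the highest saline value. The log2 difference was 3.95 ± 0.58 (SE, n = 3 libraries each, edgeR adjusted p = 0.000732), a 15.5-fold difference. It passed in all 18 alternatives.

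Mmp14, a membrane-bound collagenase that also activates the Mmp2 precursor at the cell surface, had 47.0, 62.4 and 42.2 CPM in needling muscle and 19.4, 25.8 and 16.5 CPM in saline muscle. The groups did not overlap and the difference was 1.30 ± 0.21 on the log2 scale (edgeR adjusted p = 0.000755). Mmp19, a secreted enzyme that cuts basement membrane proteins, had 11.3, 20.5 and 12.6 CPM in needling and 3.46, 2.86 and 3.06 CPM in saline libraries. The saline libraries were tightly grouped, needling replicate 2 was the highest, and the log2 difference was 2.25 ± 0.49 (edgeR adjusted p = 0.00669). Mmp19 shares 789 exon bases with Tmem198b on the opposite strand, and since the use of strand in counting was not given, reads there cannot be told apart. Tmem198b itself had 4.2 to 6.46 CPM in needling and 4.06 to 4.32 CPM in saline libraries.

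Mmp3, stromelysin-1, which cuts many matrix proteins and activates other metalloproteinases, was measured with few reads, 130 over the needling libraries and 24 over the saline libraries. It had 1.74, 2.0 and 0.862 CPM in needling muscle and 0.642, 0.39 and 0.351 CPM in saline muscle. The lowest needling library was just above the highest saline library. The log2 difference of 1.75 ± 0.58 passed (edgeR adjusted p = 0.0388), but it was lost on leaving out needling replicate 1 or 2 or any saline library.

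Timp1, a soluble inhibitor that is induced by cytokines and growth factors, had 18.7, 32.1 and 18.4 CPM in needling libraries and 1.15, 2.13 and 1.5 CPM in saline libraries. The groups were far apart, with a log2 difference of 3.84 ± 1.03 (edgeR adjusted p = 0.0232), or 14.3-fold. The error was the largest among the members in this comparison, and the call was lost without a filter on low counts and on leaving out needling replicate 2 or any saline library. Timp2 had 245.6, 243.3 and 228.2 CPM in needling libraries against 181.4, 187.9 and 170.8 CPM in saline libraries. This was a small difference between groups that did not overlap, 0.41 ± 0.14 on the log2 scale (edgeR adjusted p = 0.041), and leaving out any 1 of the 6 libraries took it past the threshold.

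The other inhibitors moved the opposite way. Timp3, an inhibitor that binds to the matrix and also blocks ADAM proteases, had 70.5, 77.6 and 78.9 CPM in needling libraries against 147.1, 109.2 and 108.0 CPM in saline libraries. All needling libraries were lower, and the log2 difference was -0.68 ± 0.16 (edgeR adjusted p = 0.00734). Timp4, an inhibitor abundant in heart and skeletal muscle, had 17.5, 17.5 and 15.2 CPM in needling libraries and 44.1, 45.9 and 25.3 CPM in saline libraries. The groups did not overlap, and Timp4 fell by 1.20 ± 0.25 on the log2 scale (edgeR adjusted p = 0.00504). Each overlaps a synapsin gene on the opposite strand, Timp3 with 1733 exon bases of Syn3 and Timp4 with 90 of Syn2, and those genes had 126 and 373 counts in all.

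Both falls are relative to the typical gene. With library totals in place of TMM factors the median log2 difference of all genes became 0.26, Timp3 was -0.38 (edgeR adjusted p = 0.123) and Timp4 was -0.89 (edgeR adjusted p = 0.0218). With that scaling 7 of the 10 members passed, and the calls over all genes were 4571 higher and 181 lower, against 2853 higher and 1703 lower with TMM. The 6 members that rose kept their call and direction under it.

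The gelatinases showed no such difference. Mmp2, gelatinase A, had 61.3, 69.3 and 78.0 CPM in needling and 55.7, 68.6 and 62.5 CPM in saline libraries. The groups overlapped, with a log2 difference of 0.16 ± 0.21 (edgeR adjusted p = 0.607). Mmp9, gelatinase B, which neutrophils store in granules and macrophages secrete, had 1.63, 4.45 and 2.41 CPM in needling and 3.78, 2.98 and 2.06 CPM in saline libraries. The groups overlapped here too, with a log2 difference of -0.04 ± 0.40 (edgeR adjusted p = 0.956), and Mmp9 passed in no comparison under any alternative.

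**Figure D2:**
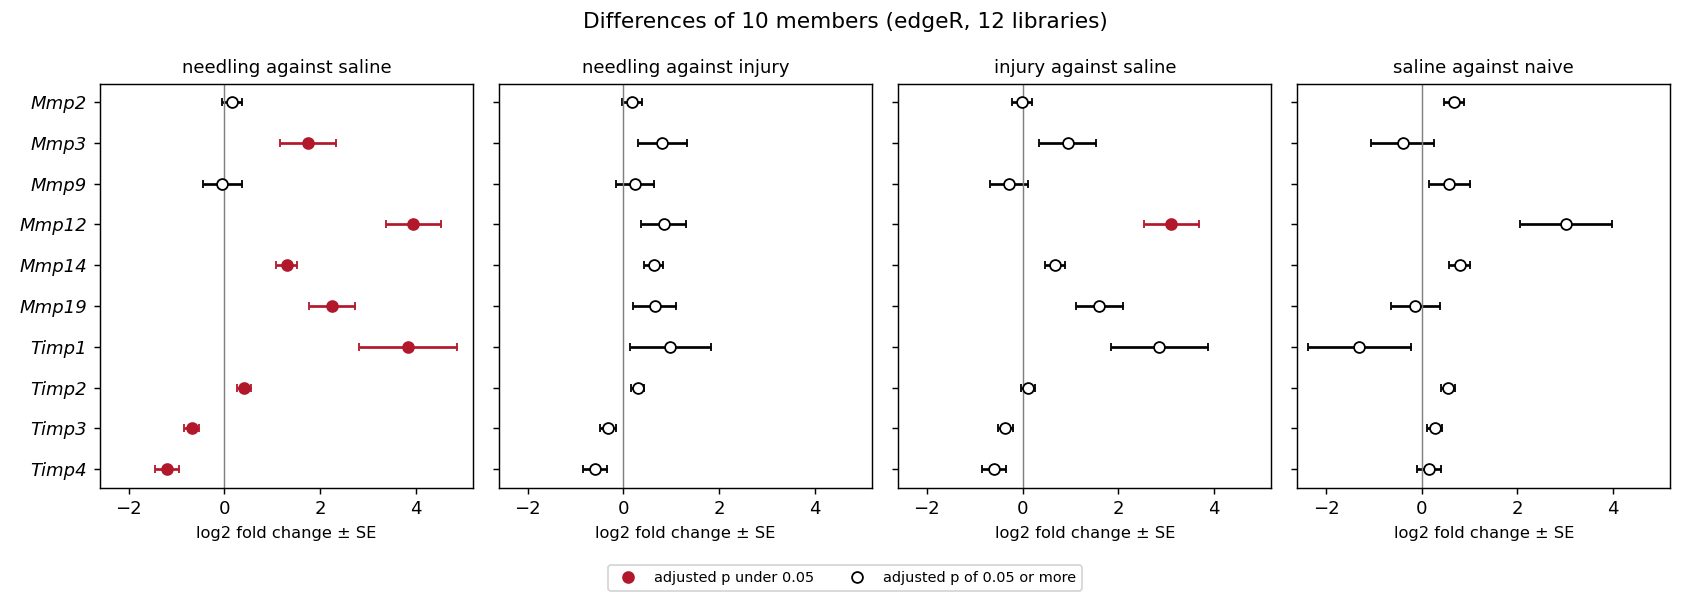
Log2 difference (x axis, positive where the first-named group is higher) of each member (rows) in needling against saline, needling against injury, injury against saline and saline against naive muscle, with bars of 1 standard error; filled red points have an adjusted p under 0.05 in edgeR's quasi-likelihood test. In needling against saline muscle 8 of 10 points are filled, in injury against saline only that of Mmp12, and none in the comparisons of needling with injury and of saline with naive muscle.

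The comparison of injury with saline muscle asks what bupivacaine alone did. It shares the saline libraries with the comparison of needling and saline, so the values are given side by side and not as a second independent result. Of the 10 members 1 passed, Mmp12, in a background of 4.03% of all genes tested (622 higher and 11 lower). Mmp12 had 15.2, 13.8 and 7.57 CPM in injury libraries against 0.642, 1.63 and 1.86 CPM in saline libraries. The groups did not overlap, and the log2 difference was 3.11 ± 0.57 (edgeR adjusted p = 0.0207), or 8.65-fold. The call was lost on leaving out injury replicate 1 or 2 or saline replicate 1 or 2, and in the fit of these groups alone with a replicate block, with adjusted p between 0.00788 and 0.0922 over all alternatives.

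Mmp19 and Timp1 also did not overlap between injury and saline muscle, without passing the test. Mmp19 had 7.99, 14.0 and 6.37 CPM in injury libraries against 3.46, 2.86 and 3.06 CPM in saline libraries, a log2 difference of 1.60 ± 0.49 (edgeR adjusted p = 0.107). Timp1 had 9.71, 21.0 and 4.43 CPM in injury libraries against 1.15, 2.13 and 1.5 CPM in saline libraries, a log2 difference of 2.86 ± 1.02 (edgeR adjusted p = 0.203). The spread within injury muscle was wide for Timp1, from replicate 3 to replicate 2. When naive replicate 1, which is in neither group, was left out, the filter, scaling and shared estimate of spread were computed again. In that fit 3 members passed, Mmp12, Mmp19 and Timp1, and calls over all genes rose from 633 to 912.

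The remaining members overlapped between injury and saline muscle. Mmp14 had 33.3, 40.1 and 24.7 CPM in injury libraries, where the lowest was just below the highest saline library, with a log2 difference of 0.67 ± 0.21 (edgeR adjusted p = 0.105). Mmp2 (-0.01 ± 0.21), Mmp9 (-0.28 ± 0.40), Mmp3 (0.94 ± 0.60) and Timp2 (0.11 ± 0.14) had adjusted p between 0.494 and 0.992. Timp3 and Timp4 had log2 differences of -0.36 ± 0.16 (edgeR adjusted p = 0.291) and -0.60 ± 0.25 (edgeR adjusted p = 0.265).

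The comparison of needling with injury muscle asks what acupuncture added after the same injury. With edgeR, 0 of the 10 members passed, in a background of 0.0% of all genes. At an unadjusted p under 0.05 there were 2 members, Mmp14 and Timp4, and 2450 genes in all. DESeq2 called 545 genes and 0 members. The largest log2 differences were Timp1 at 0.98 ± 0.85, Mmp12 at 0.84 ± 0.47 and Mmp3 at 0.81 ± 0.51.

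Mmp14, Timp2 and Timp4 did not overlap between needling and injury libraries. Mmp14 had 47.0, 62.4 and 42.2 CPM in needling and 33.3, 40.1 and 24.7 CPM in injury libraries (log2 difference 0.63 ± 0.20, edgeR adjusted p = 0.169). Timp2 had 245.6, 243.3 and 228.2 CPM in needling and 189.6, 173.7 and 220.4 CPM in injury libraries (log2 difference 0.30 ± 0.14, edgeR adjusted p = 0.321). Timp4 had 17.5, 17.5 and 15.2 CPM in needling and 32.4, 25.9 and 17.7 CPM in injury libraries (log2 difference -0.60 ± 0.25, edgeR adjusted p = 0.278). Needling libraries were the higher ones for Mmp14 and Timp2 and the lower ones for Timp4.

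Needling and injury libraries with the same replicate number deviated together from their group means, so ratios within a number were also taken. Mmp14 was 1.41, 1.55 and 1.71 times as high in needling as in injury muscle in replicates 1, 2 and 3. Mmp12 was 1.57, 2.07 and 1.69 times as high, and Mmp19 was 1.42, 1.47 and 1.98 times as high. Timp1 was 1.92, 1.53 and 4.16 times as high, and Timp4 stood at 0.54, 0.676 and 0.855 of the injury level. All 3 ratios were above 1 for Mmp3, Mmp12, Mmp14, Mmp19, Timp1 and Timp2, and all 3 were below 1 for Timp3 and Timp4. The share of all genes with 3 ratios on the same side of 1 is not given here. The pairing itself came from these data, so these ratios are a description of the members.

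With the replicate number as a block and these 2 groups alone, edgeR called 5 members, among 3188 of 15497 genes (20.6%). These were Mmp12 at 0.79 ± 0.10 (edgeR adjusted p = 0.000402), Mmp14 at 0.60 ± 0.08 (edgeR adjusted p = 0.00045), Mmp19 at 0.64 ± 0.12 (edgeR adjusted p = 0.00442), Timp3 at -0.34 ± 0.08 (edgeR adjusted p = 0.013) and Timp4 at -0.60 ± 0.12 (edgeR adjusted p = 0.0106). That fit leaves 2 residual degrees of freedom per gene. With the block over all 12 libraries, 0 members passed, and with a block of the injury and needling libraries within the fit of 12, which was added after seeing the data, 371 genes and 0 members passed, with Mmp14 at an adjusted p of 0.0502. Calls of members between needling and injury muscle therefore came only from the block fitted in these 2 groups alone. With the block over all 12 libraries Mmp12 had a similar log2 difference with a larger error, 0.82 ± 0.44.

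**Figure D3:**
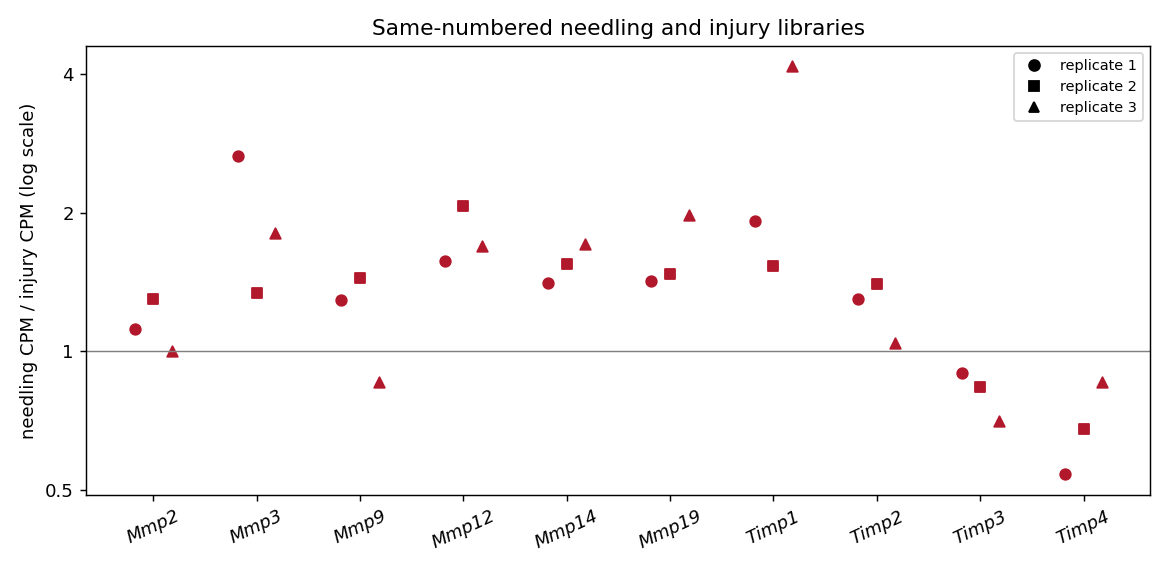
Ratio of needling to injury CPM for same-numbered libraries (log axis), 3 points per member, with a line at 1 for equal levels. The points of Mmp3, Mmp12, Mmp14, Mmp19, Timp1 and Timp2 all lie above the line and those of Timp3 and Timp4 all lie below it, with Timp1 most spread, from 1.53 to 4.16.

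The comparison of saline with naive muscle asks what the vehicle injection did. With edgeR, 0 of the 10 members passed, in a background of 0.0% of all genes tested, while 4 members and 1858 genes had an unadjusted p under 0.05. DESeq2 called 150 genes, of which Timp2 was 1 (DESeq2 adjusted p = 0.026). Mmp2, Mmp12, Mmp14 and Timp2 did not overlap, with every saline library above every naive library. Mmp2 had 55.7, 68.6 and 62.5 CPM in saline and 28.4, 35.4 and 53.4 CPM in naive libraries (log2 difference 0.67 ± 0.21, edgeR adjusted p = 0.32). Timp2 had 181.4, 187.9 and 170.8 CPM in saline and 100.8, 120.4 and 147.6 CPM in naive libraries (log2 difference 0.55 ± 0.14, edgeR adjusted p = 0.26). Naive replicate 3 was the highest naive library for both genes.

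The sign of 3 other members changed when naive replicate 1 was left out. For Timp1 it had 10.8 CPM against 0.64 and 0.87 CPM in the other naive libraries, so the log2 difference of saline from naive muscle was -1.30 ± 1.08 with it and 1.10 without it. For Mmp19 it had 6.63 CPM against 1.49 and 2.3 CPM, and the difference was -0.13 ± 0.51 with it and 0.73 without it. For Mmp3 the values were -0.40 ± 0.65 with it and 0.44 without it. None of these passed in edgeR either way. For Mmp19 and Timp1 the sign also changed in some alternatives that kept naive replicate 1, given below.

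Naive muscle served as a second control for both treated groups, and these comparisons share the naive libraries. In needling against naive muscle 6 members passed, in a background of 41.6% of all genes tested (3593 higher and 2952 lower). Mmp14 rose by 2.10 ± 0.22 on the log2 scale (edgeR adjusted p = 1.85e-05) and Timp2 by 0.96 ± 0.14 (edgeR adjusted p = 0.000159). Mmp19 rose by 2.12 ± 0.48 (edgeR adjusted p = 0.00504) and Mmp2 by 0.83 ± 0.21 (edgeR adjusted p = 0.00813). Timp4 fell by 1.03 ± 0.25 (edgeR adjusted p = 0.00659), a call lost with library totals (-0.54, edgeR adjusted p = 0.109).

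Mmp12 was close to undetected in naive muscle, with 9 counts in replicate 1 and 0 in the others. A count of 0 there allows up to 0.16 CPM in replicate 2 and 0.153 CPM in replicate 3, for counting error only. The fitted log2 difference of needling from naive muscle was 6.97 ± 0.77 (edgeR adjusted p = 6.81e-05). That of injury from naive muscle was 6.14 ± 0.78 (edgeR adjusted p = 0.000752), and with so few naive counts neither size is well fixed. Over the alternatives the needling value ran from 1.92 on log2(FPKM + 1) to 11.96 without naive replicate 1, and the injury value from 1.36 to 11.16 under the same settings, and all of these passed. Against the floor of 3 counts per library in naive replicates 2 and 3, mean Mmp12 was 135.9-fold higher in needling and 76.2-fold in injury muscle. Those folds leave out naive replicate 1, at 0.563 CPM, so they are not lower bounds for naive muscle as a group. With that library the fitted folds were smaller, 125.7 in needling and 70.4 in injury muscle.

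In injury against naive muscle 3 members passed, in a background of 17.6% of all genes tested (1909 higher and 850 lower). These were Mmp12, Mmp14 at 1.47 ± 0.21 (edgeR adjusted p = 0.00082) and Timp2 at 0.66 ± 0.14 (edgeR adjusted p = 0.00589), and all 3 passed in each of the 17 alternatives. Mmp2 was at the threshold, 0.66 ± 0.21 (edgeR adjusted p = 0.0502). With library totals the median of all genes became 0.33 in injury and 0.46 in needling muscle against naive. In injury muscle 5 members then passed, and the calls over all genes were 4140 higher and 14 lower in injury muscle, and 7263 higher and 317 lower in needling muscle, both against naive. Without naive replicate 1, 5 members passed in injury muscle and 8 in needling muscle. Calls over all genes were then 2487 in injury and 6421 in needling muscle, against 2759 and 6545 with that library. Timp1 was then among the members that passed, at 4.0 in injury (edgeR adjusted p = 0.00799) and 4.94 in needling muscle (edgeR adjusted p = 0.00102), against 1.56 ± 0.93 and 2.54 ± 0.94 with that library.

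The inhibitors and the enzymes were then taken as pools. Summed over the 4 genes, TIMP expression was 95.5, 111.7 and 90.9 FPKM in needling libraries and 74.7, 83.9 and 77.8 in injury libraries. It was 72.5, 71.0 and 62.7 in saline and 58.0, 47.6 and 56.8 in naive libraries. The 6 metalloproteinases summed to 33.9, 43.4 and 36.4 FPKM in needling, 26.9, 30.0 and 31.0 in injury, 22.0, 26.5 and 23.1 in saline and 13.9, 13.3 and 19.0 in naive libraries. Both sums were highest in needling libraries, and neither sum overlapped between any neighbouring groups in this order. These are descriptions with no test.

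The ratio of TIMP to metalloproteinase FPKM was 2.81, 2.58 and 2.49 in needling, 2.78, 2.79 and 2.51 in injury, 3.29, 2.68 and 2.72 in saline and 4.17, 3.57 and 2.98 in naive libraries. Each group overlapped with its neighbour in this ratio, and all needling and injury libraries lay below all naive libraries. Timp1 made up 22.0%, 32.5% and 22.6% of the TIMP sum in needling libraries and 14.6%, 28.1% and 6.36% in injury libraries. It was 1.77%, 3.35% and 2.69% in saline and 20.9%, 1.52% and 1.69% in naive libraries, the high naive value again being replicate 1.

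Timp4 went the other way, at 3.11%, 2.67% and 2.81% of the TIMP sum in needling, 7.36%, 5.23% and 3.84% in injury, 10.2%, 10.8% and 6.81% in saline and 12.4%, 11.3% and 8.49% in naive libraries. The FPKM ratio of Timp1 to Timp4, in which the scaling between libraries cancels, was 7.08, 12.2 and 8.05 in needling, 1.99, 5.38 and 1.66 in injury, 0.174, 0.309 and 0.394 in saline and 1.68, 0.134 and 0.199 in naive libraries. In FPKM, Timp1 was thus the higher of the pair in all needling and injury libraries and the lower in all saline libraries. In CPM, which has no length correction, Timp1 was also above Timp4 in all needling libraries. In injury libraries it was below Timp4, at 9.71, 21.0 and 4.43 CPM against 32.4, 25.9 and 17.7 CPM. The order of the pair in injury muscle therefore depends on the lengths used. The FPKM ratio of Mmp14 to Mmp2 was 0.434, 0.509 and 0.306 in needling, 0.344, 0.427 and 0.179 in injury, 0.197, 0.213 and 0.149 in saline and 0.265, 0.167 and 0.124 in naive libraries, so that needling libraries were all above saline and naive libraries while injury replicate 3 was not.

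**Figure D4:**
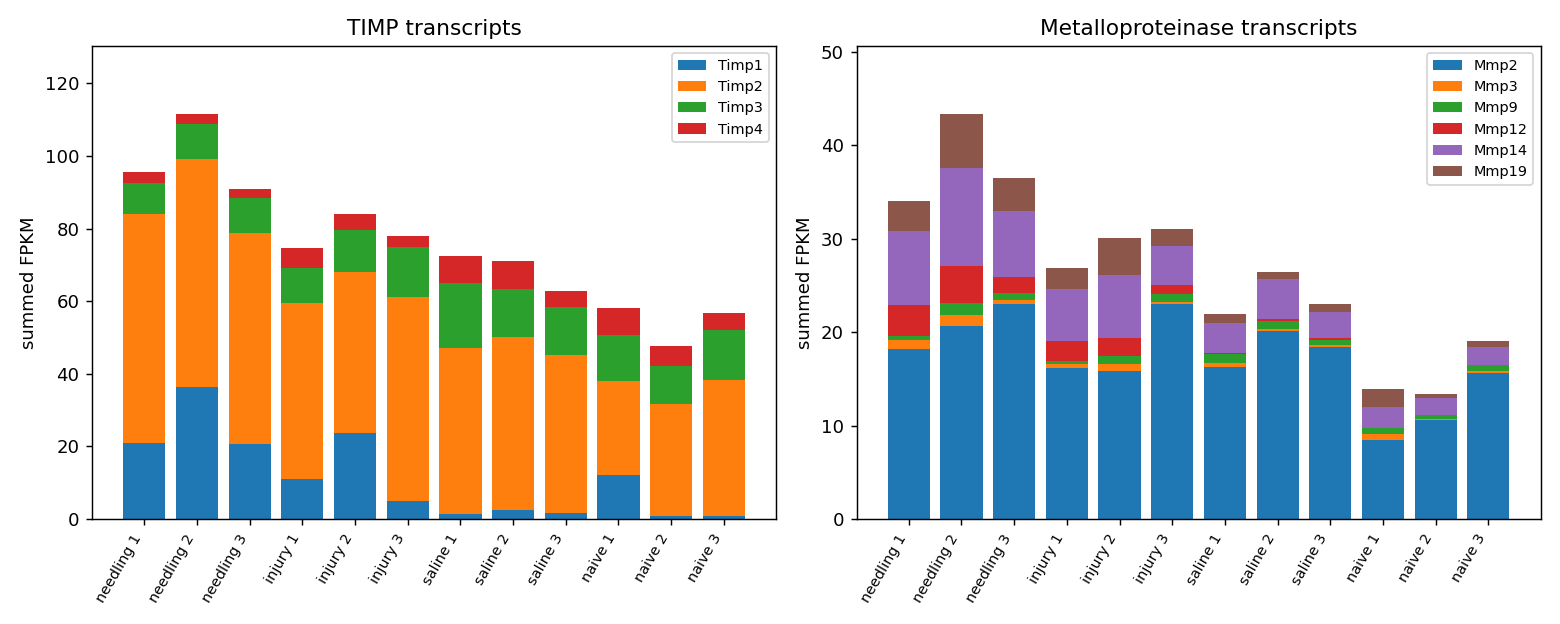
Stacked FPKM of the 4 TIMP genes (left) and the 6 metalloproteinase genes (right) in each of the 12 libraries, in the order needling, injury, saline, naive, with bars from 0. Timp2 and Mmp2 make the largest part of every bar, and the Timp1 part is 22.0% to 32.5% of the TIMP bar in needling libraries and 1.77% to 3.35% in saline libraries.

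The members' patterns over the 12 libraries can be described by their nearest genes, by Pearson's r of log2 CPM, with no test. The libraries share their groups, so a high r reflects group differences as well as differences within groups. The genes closest to Mmp12 were Cit (r = 0.989), the dendritic cell and macrophage integrin gene Itgax (r = 0.987) and the cell division gene Mki67 (r = 0.985). Closest to Mmp19 were the chemokine genes Ccl9 (r = 0.993) and Ccl6 (r = 0.99) and the lectin gene Clec4d (r = 0.982). Closest to Mmp14 were Serp1 (r = 0.987), Pea15a (r = 0.986) and Marcks (r = 0.985). Genes near Mmp2 included Lrrn4cl (r = 0.972) and Htra3 (r = 0.97).

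For the inhibitors, Timp1 was nearest to Tuba1c (r = 0.985), Il4ra (r = 0.983) and Cd44 (r = 0.979), and Timp2 to Mxra8 (r = 0.976), Rnase4 (r = 0.965) and Pdcd6 (r = 0.963). Timp4 was nearest to Rgs4 (r = 0.967), Slc9a3r2 (r = 0.959) and the endothelial phosphatase gene Ptprb (r = 0.955), and Timp3 to Dennd6b (r = 0.925), Jrk (r = 0.921) and Spen (r = 0.915). Mmp3 and Mmp9, the members with the lowest FPKM in needling muscle, were nearest to B3gnt3 (r = 0.969) and Rtl8c (r = 0.899). Among the members themselves, Mmp19 and Timp1 had r = 0.98, and 0.93 after the group means were removed. Mmp2 and Timp2 had r = 0.91, and 0.84 after the group means were removed.

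Sums of cell type markers were also compared between the groups. The 8 macrophage and monocyte markers, such as Adgre1, Cd68 and C1qa, summed to between 1671.5 and 2314.0 CPM in needling libraries, 705.4 and 1157.7 in injury, 182.9 and 415.7 in saline and 89.5 and 171.8 in naive libraries. All 8 passed the filter, and none was at 0 in every library. Needling replicate 3 and injury replicate 3, the lowest of their groups in this sum, were also the lowest for Mmp12 and Mmp14. The same libraries were the lowest for Timp4 (15.2 and 17.7 CPM), whose group means ran the other way. Saline replicate 3 had the highest saline sum (415.7 CPM) and the highest saline Mmp12 (1.86 CPM), but the lowest saline Mmp14 (16.5 CPM). The 7 fibre markers, among them Acta1 and Ckm, summed to between 59190.7 and 92741.5 CPM in needling, 84236.0 and 113820.2 in injury, 115109.5 and 136639.0 in saline and 119113.1 and 162558.0 in naive libraries. The part of either cell type in the members' differences was not tested.

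The 7 markers of fibroblasts and fibro-adipogenic progenitors, stromal cells known to make matrix and its enzymes, summed to between 719.1 and 864.2 CPM in needling, 679.1 and 1016.0 in injury, 824.7 and 916.3 in saline and 489.8 and 793.3 in naive libraries. The order of these ranges had needling and injury muscle overlapping with saline, and naive muscle below saline, as for Mmp2. Needling and naive libraries overlapped in this sum, but not for Mmp2 (61.3 to 78.0 against 28.4 to 53.4 CPM). Dcn was the largest part of the sum, with a mean of 482.9 CPM in saline muscle. The part of these cells in the members' differences was not tested. Neutrophil markers were low, and 3 of 10 passed the filter. They summed to between 6.98 and 10.5 CPM in needling, 2.45 and 6.1 in injury, 0.385 and 1.52 in saline and 0.373 and 8.13 in naive libraries. Most of the needling sum was 1 gene, Csf3r, with a mean of 7.6 CPM against 0.703 CPM in saline muscle. The other markers tested, S100a8 and S100a9, did not pass in needling against saline muscle (edgeR adjusted p = 0.169 and 0.331). The defining gene Ly6g had 2 counts over the whole series, and the highest naive sum was that of replicate 1, the library with high Timp1, Mmp19 and Mmp3.

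The 5 endothelial markers ran from 123.0 to 149.1 CPM in needling, 143.9 to 182.3 in injury, 157.4 to 198.6 in saline and 138.1 to 217.2 in naive libraries. The 5 pericyte and smooth muscle markers ran from 227.3 to 257.2 CPM in needling, 255.8 to 332.4 in injury, 273.5 to 367.6 in saline and 300.7 to 390.5 in naive libraries. Needling libraries were all below saline libraries in both sums. Of the endothelial markers 3 of 5 fell in edgeR in needling against saline muscle (Kdr, Tek and Emcn). Of the pericyte and smooth muscle markers 2 of 5 fell, Rgs5 (-0.73 ± 0.14), which makes up most of that sum, and Myh11 (-0.94 ± 0.20), while Acta2 (0.48 ± 0.21), Cspg4 (0.07 ± 0.14) and Pdgfrb (0.04 ± 0.22) did not pass. The part of vessel cells in the falls of Timp3 and Timp4 was not tested. Satellite cell markers ran from 60.1 to 74.4 CPM in needling and 36.2 to 40.4 CPM in saline libraries. Tendon markers ran from 48.6 to 77.9 CPM in needling and 45.2 to 85.5 CPM in saline libraries, a sum made mostly of Fmod. The tendon transcription factor gene Scx rose by 1.49 ± 0.20 in needling (edgeR adjusted p = 0.00022) and by 0.98 ± 0.20 in injury muscle (edgeR adjusted p = 0.0216), both against saline, and the other 3 tendon markers did not pass. Fat markers ran from 129.4 to 215.5 CPM in needling and 219.1 to 402.9 CPM in saline libraries, and mast cell markers from 9.5 to 16.1 CPM in needling and 16.2 to 22.7 CPM in saline libraries. Skin markers stayed at 4.56 CPM or less, with Krt5 at 0.

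Other genes of the same system were counted from lists by role, to be read against 18.2% of all genes tested higher and 10.8% lower in needling against saline muscle, and 3.96% higher and 0.07% lower in injury against saline muscle. Among the 17 other metalloproteinase genes 9 were tested, and 4 rose in needling against saline muscle. Mmp13, collagenase 3, averaged 2.02 ± 0.857 CPM in needling and 0.172 ± 0.244 CPM in saline libraries (SD, n = 3 each), a log2 difference of 3.42 ± 0.69 (edgeR adjusted p = 0.00434). Mmp23 averaged 6.19 ± 1.27 and 3.04 ± 0.546 CPM in needling and saline libraries (log2 difference 1.03 ± 0.22, edgeR adjusted p = 0.00392). Mmp8, neutrophil collagenase, and Mmp27 passed at lower levels, with log2 differences of 2.71 ± 0.86 (edgeR adjusted p = 0.0325) and 1.24 ± 0.42 (edgeR adjusted p = 0.0406). In injury against saline muscle 0 of the 9 passed in edgeR, with 1 at an unadjusted p under 0.05.

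The matrix proteins that these enzymes cut were counted next. Of 17 tested, 9 rose in needling and 5 in injury muscle, both against saline, with none lower. Fibrillar collagen Col3a1 had a log2 difference of 1.84 ± 0.21 (edgeR adjusted p = 0.000123) and fibronectin, Fn1, of 1.87 ± 0.21 (edgeR adjusted p = 0.000123) in needling against saline muscle. All 5 collagen-degrading lysosomal cathepsins rose in needling muscle, with the smallest adjusted p for Ctsb at 1.79 ± 0.20 (edgeR adjusted p = 0.000121) and the largest difference for Ctss at 3.43 ± 0.66 (edgeR adjusted p = 0.00512), and 2 of 5, Ctsb and Ctsl, rose in injury muscle.

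Of the related ADAMTS proteases 5 of 15 rose in needling against saline muscle (7 with library totals). The smallest adjusted p was that of the procollagen-processing Adamts14 at 1.90 ± 0.36 (edgeR adjusted p = 0.00202), and the largest difference was that of Adamts4 at 3.05 ± 0.97 (edgeR adjusted p = 0.0395). In all, 0 of 15 passed in injury muscle in edgeR, with 3 at an unadjusted p under 0.05. Of the genes of the membrane-bound ADAM family 6 of 10 rose in needling muscle, with the smallest adjusted p for Adam19 at 2.0 ± 0.22 (edgeR adjusted p = 0.00012). The largest differences were those of Adam12 at 3.80 ± 0.77 and Adam8 at 3.73 ± 0.84. In all, 2 of 10, Adam19 and Adam10, rose in injury muscle. Among 12 tested genes of activation and inhibition outside the TIMPs, 5 rose and 2 fell in needling muscle, and 8 rose and 0 fell with library totals. The urokinase receptor gene Plaur rose by 2.65 ± 0.39 (edgeR adjusted p = 0.000492) and Lrp1, a receptor that clears proteases and inhibitors, by 1.20 ± 0.19 (edgeR adjusted p = 0.000559). The 2 that fell, Bsg and Serpine2, had -0.43 ± 0.13 and -0.37 ± 0.12, and with library totals -0.13 and -0.07 (edgeR adjusted p = 0.319 and 0.619).

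Of 13 cytokine and transcription factor genes known to drive metalloproteinase expression, 3 rose in needling against saline muscle, Tgfb1 at 2.14 ± 0.25 (edgeR adjusted p = 0.000151), Tnf (edgeR adjusted p = 0.0414) and Il1b (edgeR adjusted p = 0.0491). With library totals 6 passed, Osm, Nfkb1 and Rela in addition, so the count of 3 of 13, near the share of all genes, depends on the scaling. In injury muscle Tgfb1 alone passed (edgeR adjusted p = 0.0203). In needling against injury and in saline against naive muscle edgeR called 0 genes in each of these 7 lists, while between 2 and 8 genes per list in needling against injury had an unadjusted p under 0.05. In saline against naive muscle that number lay between 1 and 11.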

How the data were processed

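A table of raw counts by gene, deposited by the authors, covers 12 libraries, and the FPKM table deposited by the authors holds the same genes. Per the submitters' processing notes, HISAT2 2.0.5 was the aligner and mm10 the genome. The counting tool, its annotation and its use of strand are not given in the sources used here. These FPKM values, as deposited, were scaled by median-ratio size factors of the counts, as the ratio of count to FPKM showed (16492 genes compared), so they are relative to the typical gene and not to library totals.

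Symbols, positions and overlaps came from GENCODE M21 on mm10 and promoter windows from RefSeq on GRCm38.p6. Counts were tested with edgeR 4.0.16 in R 4.3.3 (quasi-likelihood, robust, TMM scaling, low-count filter by group, 1 mean per group over 12 libraries, two-sided), called at a Benjamini-Hochberg adjusted p under 0.05. The standard error is the size of the log2 difference divided by the square root of the F statistic. The steps were tested on simulated counts. Alternatives were DESeq2 1.42.0, limma 3.58.1 on FPKM after log2 with a pseudocount of 1 or 0.1, limma-voom (quality weights), median-ratio factors, no filter, a stricter filter (1 CPM in 6 libraries), the 2 groups alone, replicate blocks and leaving out each library. Library totals with no scaling factors, 1 further block, and leaving naive replicate 1 out of comparisons it is not part of were added after seeing the data. Same-numbered needling and injury libraries correlated at 0.238, 0.485 and 0.422 in their deviations from group means, each over the criterion of 0.1. That pairing comes from the data, not the labels, and no other pair of groups met the criterion. No replicates were identical. All 10 members were named in every comparison, with the 3 nearest protein-coding genes by correlation (log2 CPM, prior count 2) or fewer (1 such gene is not reported here), and up to 4 genes per list by adjusted p. Genes named for the largest difference in a list, for passing with library totals, or as single cell type markers were chosen after their values were seen. The members, lists and markers were chosen with earlier results of these data known.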

Additional observations from a re-analysis of the deposited data

How the results depend on the processing

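The number of members called was 0 in saline against naive muscle and 1 with DESeq2. In injury against saline muscle it was 1, and 3 with DESeq2 and with limma-voom, 2 with a replicate block over 12 libraries and with the 2 groups alone, 0 with a replicate block in the 2 groups alone, and 0 to 3 on leaving out single libraries (0 without injury replicate 1 or 2 or saline replicate 1 or 2, 2 without injury replicate 3 and 3 without naive replicate 1). In injury against naive muscle it was 3, and 5 with DESeq2, the block over 12 libraries, both limma fits on FPKM and library totals, and 3 to 5 on leaving out single libraries. Calls over all genes there were 2759, against 3271 with DESeq2 and 2954 with that block. They were 2386 on log2(FPKM + 1) and 2620 on log2(FPKM + 0.1). In needling against injury muscle the number of members called was 0, and 5 with a replicate block in the 2 groups alone, where same-numbered libraries pair. In needling against saline muscle it was 8, and 5 to 8 on leaving out single libraries (5 without needling replicate 2 or any saline library). In needling against naive muscle it was 6 and stayed between 5 and 9, while calls over all genes ran from 3914 to 7580. The block changed no call of a member beyond those in these counts and in the report, apart from needling against naive muscle, where Mmp19 was lost in the 2 groups alone (edgeR adjusted p = 0.0634) and Mmp3 was gained over 12 libraries.

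Over 60 results, 1051 values under alternatives were computed: 951 kept direction and side of the threshold, 24 lost and 48 gained it, and 28 changed sign, all of values that were not called. In saline against naive muscle, leaving out single libraries gave Mmp3 from -0.77 to 0.44, Mmp19 from -0.49 to 0.73 and Timp1 from -1.82 to 1.10. There Mmp19 was 0.09 on log2(FPKM + 0.1), 0.28 with limma-voom, 0.08 with the block in 2 groups and 0.06 with library totals. With limma-voom Timp1 was 0.22 and Timp4 -0.01. In injury against saline muscle Mmp2 was 0.01 with no filter, 0.14 with library totals and -0.17 to 0.10 without single libraries, and Mmp9 -0.51 to 0.02. In injury against naive muscle Mmp3 ran from -0.10 to 1.42 and Timp3 from -0.18 to 0.05, with Timp3 at 0.24 with library totals. Mmp9 ran from -0.25 to 0.52 in needling against injury and from -0.53 to 0.24 in needling against saline muscle, where it was 0.29 with library totals. Timp3 was 0.07 in needling against naive muscle with library totals. The cause of these changes was not tested. Library totals moved the median of all genes from 0.01 to 0.20 in saline against naive, from -0.03 to 0.13 in injury against saline and from 0.01 to 0.15 in needling against injury muscle.

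Calls over all genes moved more than 1.5-fold as follows: from 0 to 150 with DESeq2 and 25 with no filter in saline against naive; from 633 to 1039 with DESeq2, 1107 with limma-voom and 0 with the block in 2 groups in injury against saline; from 2759 to 1743 with the 2 groups alone, 1246 with their block and 4154 with library totals in injury against naive; from 0 to 545 with DESeq2, 911 with limma-voom, 202 with no filter, 161 on log2(FPKM + 1) and 3188 with the block in needling against injury; and from 6545 to 3914 with the block in needling against naive muscle. Without single libraries these counts ran from 0 to 24 in saline against naive, 0 to 1059 in injury against saline, 1365 to 2551 in injury against naive, 0 to 1 in needling against injury and 2460 to 4983 in needling against saline muscle. They ran from 4897 to 6421 in needling against naive muscle. The stricter filter left Mmp3 without a value. Mmp3, Mmp9 and, in naive muscle, Mmp12 rest on few counts, which limits what could be detected for them.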
